A study of Mus musculus with 26 samples.

Results

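The annexins of the mouse left ventricle were followed across 4 genotypes. The members were the genes of the count table whose symbol was Anxa1, Anxa2, Anxa3, Anxa4, Anxa5, Anxa6, Anxa7 or Anxa11, which made 8 of the 15249 genes measured. All 8 passed the filter on low counts. RNA was sequenced from 26 left ventricle libraries of C57BL6 mice, with 6 libraries from wild types (wt), 7 from mice that overexpress Mst-1 (MstTg), 8 from galectin-3 knockouts (Gal3Ko) and 5 that carry both changes (Mst1Gal3). Mst-1, encoded by Stk4, is a kinase of the Hippo pathway, and galectin-3, encoded by Lgals3, is a secreted lectin. Mst-1 mice are used to model dilated cardiomyopathy. The design asks what loss of galectin-3 does with and without it. The labels do not give the promoter of the transgene, the age or sex of the animals, or whether replicates are separate animals, so p-values measure the spread between these libraries.

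Annexins are cytosolic proteins that bind acidic phospholipids when calcium rises, through a conserved core that settles on the membrane. They differ in their N-terminal tails, which carry binding sites for partners such as S100 proteins. In heart muscle they are known from membrane repair, calcium handling, exposure of phosphatidylserine on dying cells and, in fibroblasts and leukocytes, from inflammation and the breakdown of fibrin.

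Library totals ran from 18580405 to 32663735 counts. Levels are in CPM, counts scaled to library size with edgeR's TMM factors, and the smallest library resolved steps of 0.0538 CPM per count before TMM. Mean Stk4 was 949 and 977 CPM in MstTg and Mst1Gal3, and 23.6 and 23.3 CPM in wt and Gal3Ko. Lgals3 averaged 55.2 CPM in MstTg and 3.91 CPM in Mst1Gal3. In wt it was already low, at 1.64 CPM, and the libraries labelled Gal3Ko were not lower, at 2.14 CPM, so the table shows the knockout only against MstTg. Transcripts of the mitochondrial genome took 29.2 to 35.5% of counts in wt and 26.8 to 38.3% in Gal3Ko, but 14.4 to 23.3% in MstTg and 15.7 to 23.0% in Mst1Gal3. With these genes removed before scaling and the fit, the numbers of annexins called were the same in all 5 tests (7, 1, 4, 8 and 0), and Anxa2 in MstTg against wt was log2 1.38. The left ventricle label was checked against atrial RNA: 6 libraries (wt replicate 5, MstTg replicate 5, Gal3Ko replicates 4, 5 and 8, and Mst1Gal3 replicate 3) held more than 30 CPM of Myl7, Myl4 and Sln summed. For the 8 annexins, calls that change without these libraries are given both ways. Single results of other genes were not examined without them.

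Compared per length of exon (RPKM, reads per kilobase of exon on the CPM scale), Anxa6 was the most abundant annexin in the wt ventricle. Anxa6 is the largest annexin, with a duplicated core, and is a major annexin of heart muscle. It averaged 56.3 ± 3.40 RPKM (SD, n = 6), and Anxa5, the annexin used to stain phosphatidylserine on dying cells, followed with 36.0 ± 2.91. Anxa2 and Anxa7 came next at 10.2 and 10.03 RPKM and did not differ beyond their spread. Anxa11 at 6.77, Anxa1 at 5.16 and Anxa3 at 4.93 RPKM each overlapped with the next of the 3, and Anxa4 was lowest at 3.46 RPKM. Gal3Ko had the same order, and its Anxa6 averaged 57.2 RPKM.

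The order was different in the libraries with Mst-1 overexpression. In MstTg, Anxa6 at 64.5 and Anxa5 at 54.0 RPKM overlapped, and Anxa2 followed at 26.1 RPKM, clear of both neighbours. Anxa7 at 14.0 and Anxa1 at 12.6 RPKM overlapped, Anxa4 followed at 8.17 RPKM, and Anxa3 and Anxa11 shared the bottom at 6.33 and 6.31 RPKM. Mst1Gal3 had the same order by mean, except that its Anxa6 and Anxa5, at 66.4 and 50.7 RPKM, did not overlap, nor did its Anxa7 and Anxa1. The sum of the 8 members was 127 to 143 RPKM in wt, 120.3 to 134 in Gal3Ko, 180.0 to 202 in MstTg and 175 to 189 in Mst1Gal3. The share of Anxa6 in that sum was 42.4% ± 1.51 (SD, n = 6) in wt and 33.5% ± 2.34 (SD, n = 7) in MstTg, while Anxa2 took 7.66% ± 0.547 and 13.6% ± 0.572. Anxa5 held near the same share, 27.1% in wt and 28.1% in MstTg.

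**Figure D1:**
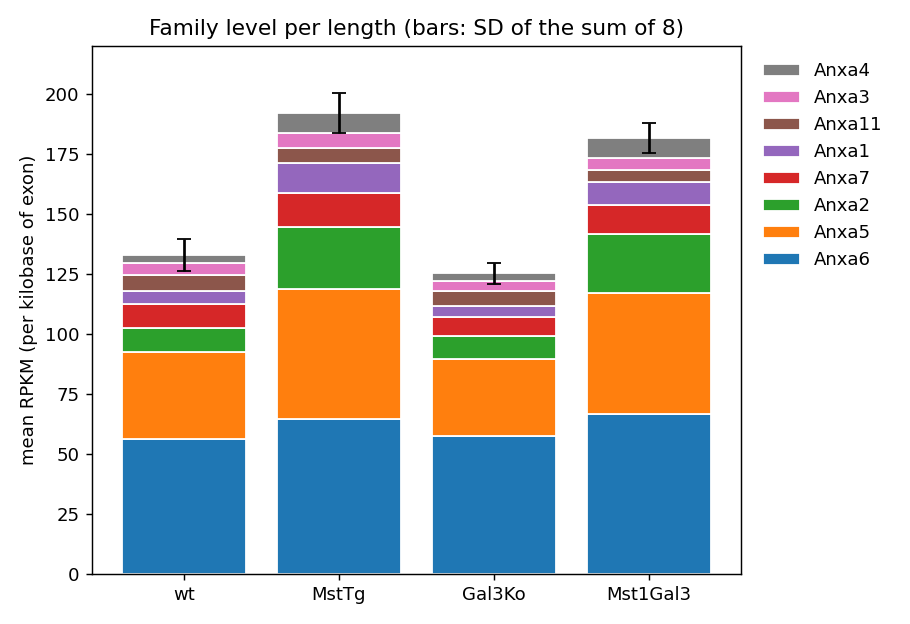
Mean RPKM of the 8 annexins stacked by group (y axis, reads per kilobase of exon on the CPM scale), with the SD of the summed level over libraries as bars. The mean sums were 133 for wt, 125 for Gal3Ko, 192 for MstTg and 182 for Mst1Gal3, and the Anxa2 layer is the one that widens most in proportion.

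Mst-1 overexpression was compared with wt first. Anxa1, Anxa2 and Anxa4 were more than doubled in MstTg, Anxa5 and Anxa7 rose by smaller steps, and Anxa3 and Anxa6 rose least. Of the 8 annexins, 7 were called higher and 0 lower by edgeR's quasi-likelihood test (Benjamini-Hochberg adjusted p below 0.05 over all genes). Of all genes measured, 55% were called, with 28.2% higher and 26.8% lower. The median log2 fold change of the members was 0.53, against 0.02 over all genes. For 5 members (Anxa1, Anxa2, Anxa4, Anxa5 and Anxa7) every MstTg library was above every wt library, a pattern seen in 15.9% of all genes, and no member showed the opposite one, seen in 16.2%. In a bulk ventricle sample, more cells of a type that makes an annexin and more RNA per cell cannot be told apart. Scaled to library totals without TMM factors, the median of all genes moved to 0.27 in this comparison, with 7789 genes called higher and 2166 lower in place of 4302 and 4083. The same 7 members were called.

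Anxa2 showed the largest rise in the family. It joins S100a10 in a complex at the plasma membrane that binds plasminogen and its activator. In wt it measured 32.3 CPM at the lowest, 38.3 at the median and 41.0 at the highest, and in MstTg 91.0, 98.2 and 108. The groups lay far apart, and the difference was 2.57-fold (log2 1.36 ± 0.07 SE, edgeR adjusted p = 2.11e-17). Anxa2 lies at chr9:69453620-69491795 on the plus strand (GRCm38, ENSMUSG00000032231) and overlaps the antisense gene Gm16144, so its reads are separate from that gene only if counting used the strand, which the sources used here do not state.

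Anxa1, a glucocorticoid-induced protein that dampens leukocyte recruitment through formyl peptide receptors, measured 12.3, 14.6 and 18.2 CPM (lowest, median, highest) in wt and 28.9, 36.1 and 44.8 CPM in MstTg. No library of MstTg fell into the wt range, although MstTg itself was spread widely, with replicate 1 highest and replicate 6 lowest. The difference was 2.45-fold (log2 1.29 ± 0.09 SE, edgeR adjusted p = 1.07e-13). Anxa1 lies at chr19:20373428-20390944 on the minus strand (ENSMUSG00000024659). It overlaps 1500015L24Rik on the other strand, so the strand limit given for Anxa2 holds here too.

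Anxa4, best known from epithelia, where it binds membranes and modulates ion channels, measured 14.3, 16.3 and 18.0 CPM in wt and 35.5, 38.05 and 40.4 CPM in MstTg. It was the tightest of the 3, with a coefficient of variation of 5.14% in MstTg, and the groups were well apart. The difference was 2.36-fold (log2 1.24 ± 0.06 SE, edgeR adjusted p = 7.89e-17). Anxa4 lies at chr6:86736840-86793584 on the minus strand (ENSMUSG00000029994), where Gm44036 overlaps it on the other strand, with the same limit.

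The stretches of 250 bases before the start sites of Anxa1, Anxa2 and Anxa4 are shown because these are the 3 members that passed log2 1 in both Mst-1 comparisons. They come from the RefSeq promoter table (GRCm38.p6), which held 6 of the 8 members, and are written 5′ to 3′ on the strand of the gene. Its start sites can differ from the gene positions given above. The Anxa1 window lies inside the gene span given there, and the Anxa2 window runs into it. For Anxa4 another listed window, chr6:86775115-86775364, is not shown. Capitals mark the matches to GGAATG, the core that TEAD factors of the Hippo pathway bind, or to TGANTCA, the AP-1 site, each searched on both strands.
Anxa1, chr19:20390672-20390921, minus strand: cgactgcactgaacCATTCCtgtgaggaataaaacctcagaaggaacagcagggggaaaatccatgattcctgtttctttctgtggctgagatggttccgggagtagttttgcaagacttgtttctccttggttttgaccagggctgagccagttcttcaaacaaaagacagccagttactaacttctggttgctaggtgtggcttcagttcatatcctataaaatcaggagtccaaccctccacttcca
Anxa2, chr9:69453433-69453682, plus strand: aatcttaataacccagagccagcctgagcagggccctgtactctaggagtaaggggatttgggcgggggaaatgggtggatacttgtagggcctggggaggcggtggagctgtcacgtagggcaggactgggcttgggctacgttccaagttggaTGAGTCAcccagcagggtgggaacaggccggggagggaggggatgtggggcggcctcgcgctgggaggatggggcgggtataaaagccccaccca
Anxa4, chr6:86793585-86793834, minus strand: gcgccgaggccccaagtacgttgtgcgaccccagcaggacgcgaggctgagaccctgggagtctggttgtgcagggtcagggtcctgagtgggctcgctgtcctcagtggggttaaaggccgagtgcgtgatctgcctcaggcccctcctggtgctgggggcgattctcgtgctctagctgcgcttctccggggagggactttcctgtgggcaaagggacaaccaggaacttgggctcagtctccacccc
The capitals in Anxa1 are GGAATG read on the opposite strand and begin 236 bases before the start site. Those in Anxa2 are an AP-1 match that begins 95 bases before it, and Anxa4 had neither word in this window. Over the 32851 promoters of the table, taken with 50 more bases past the start site, 14.7% held GGAATG and 7.81% held TGANTCA. Each word was in 1 of the 8 promoters listed for members, so the matches are a description of these letters and no measure of binding.

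Anxa5 measured 58.6, 63.4 and 70.2 CPM (lowest, median, highest) in wt and 84.3, 98.0 and 105 CPM in MstTg. The groups did not overlap, and the difference was 1.499-fold (log2 0.58 ± 0.06 SE, edgeR adjusted p = 3.28e-10). Anxa5 lies at chr3:36448923-36475894 on the minus strand (ENSMUSG00000027712). Anxa7, or synexin, is known for fusing membranes and for a role in the calcium homeostasis of cardiomyocytes. It measured 54.9, 61.0 and 62.4 CPM in wt and 78.1, 82.8 and 89.6 CPM in MstTg. Here too the groups were apart, with a 1.396-fold difference (log2 0.48 ± 0.06 SE, edgeR adjusted p = 8.63e-08). Anxa7 lies at chr14:20455260-20480133 on the minus strand (ENSMUSG00000021814).

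Anxa3 and Anxa6 rose with overlapping groups. Anxa3, described as a phospholipase A2 inhibitor and a promoter of blood vessel growth, measured 15.4, 17.8 and 19.8 CPM in wt and 19.4, 22.8 and 26.8 CPM in MstTg. Only the lowest MstTg library, replicate 5, lay within the wt range. The difference was 1.28-fold (log2 0.36 ± 0.09 SE, edgeR adjusted p = 0.000754). Anxa3 lies at chr5:96793339-96845966 on the plus strand (ENSMUSG00000029484), where it shares sequence on that strand with the transcript Gm42603, so reads could be split between them.

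Anxa6, at chr11:54979108-55033445 on the minus strand (ENSMUSG00000018340), measured 156, 162 and 179.8 CPM in wt and 163, 190.5 and 215 CPM in MstTg. The MstTg libraries reached higher but began inside the wt range. The difference was 1.15-fold (log2 0.20 ± 0.06 SE, edgeR adjusted p = 0.00432).

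Anxa11 was the exception. This annexin has a long tail that binds the calcium sensor Pdcd6 and tethers RNA granules to lysosomes. It measured 25.4, 28.7 and 29.9 CPM in wt and 21.4, 25.5 and 29.7 CPM in MstTg. The groups overlapped, and the log2 difference of -0.10 ± 0.07 SE was not called (95% interval -0.24 to 0.04, edgeR adjusted p = 0.226); scaled to library totals it was 0.15, also not called. Anxa11 lies at chr14:25842156-25886804 on the plus strand (ENSMUSG00000021866). The antisense gene Anxa11os overlaps it, so the strand limit given for Anxa2 applies.

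**Figure D2:**
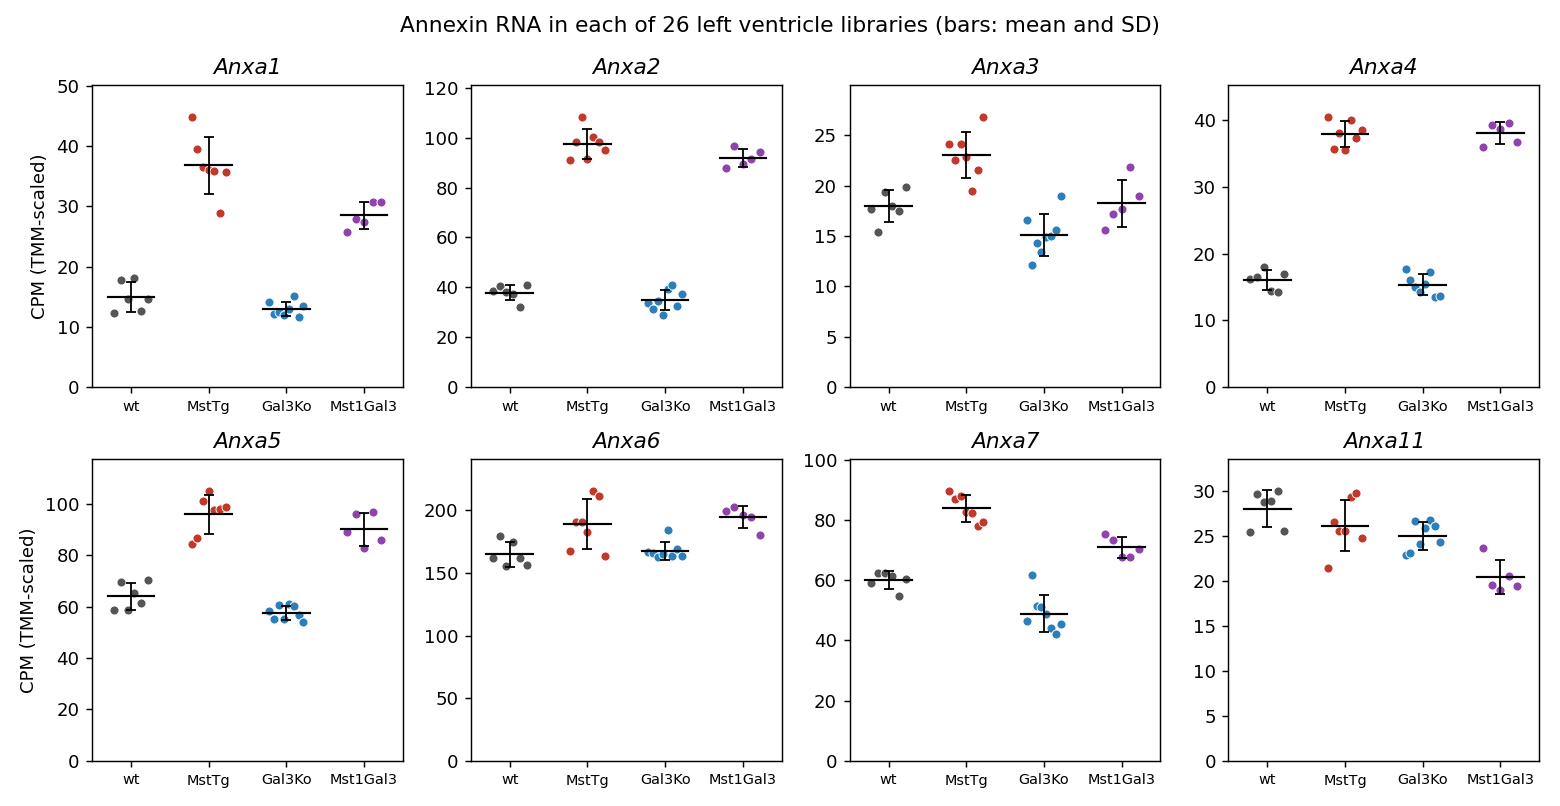
CPM of each annexin (y axis, TMM-scaled, from 0) in every library of the 4 groups (x axis), 1 point per library, with the mean and SD as bars. Anxa1, Anxa2 and Anxa4 form a high pair of groups with Mst-1 overexpression (means 36.8, 97.5 and 37.9 CPM in MstTg) and a low pair without it (15.02, 37.9 and 16.1 CPM in wt), whereas Anxa11 is lowest in Mst1Gal3 at a mean of 20.4 CPM.

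The Mst-1 response was measured a second time on the galectin-3 knockout background, with Mst1Gal3 against Gal3Ko. This comparison shares no library with the first. The same 7 annexins were called higher, and Anxa11 was called lower, while 52.5% of all genes were called, 26.9% higher and 25.6% lower. The member median was log2 0.59, against 0.01 over all genes. The groups did not overlap for 5 members, all higher (16.5% of all genes), and these were again Anxa1, Anxa2, Anxa4, Anxa5 and Anxa7.

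In Mst1Gal3, Anxa2 measured 88.1, 96.8, 89.3, 91.4 and 94.1 CPM in replicates 1 to 5, against 29.0, 34.2 and 41.0 CPM (lowest, median, highest) in Gal3Ko. All 5 libraries were far above the highest Gal3Ko library, and the difference was 2.63-fold (log2 1.397 ± 0.07 SE, edgeR adjusted p = 8.53e-18). Anxa4 measured 36.0, 39.2, 38.7, 39.6 and 36.8 CPM against 13.5, 15.2 and 17.7 CPM. It was likewise apart, at 2.48-fold (log2 1.31 ± 0.06 SE, edgeR adjusted p = 1.65e-17). Anxa1 measured 25.7, 27.9, 27.4, 30.6 and 30.8 CPM against 11.6, 12.8 and 15.2 CPM, and again no library fell into the other range (2.193-fold, log2 1.13 ± 0.09 SE, edgeR adjusted p = 2.84e-12).

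The smaller responses recurred in size as well. Anxa5 measured 88.9, 96.1, 82.6, 97.0 and 85.8 CPM in Mst1Gal3 against 54.2, 57.5 and 60.9 CPM in Gal3Ko, a log2 difference of 0.64 ± 0.06 SE. Anxa7 measured 75.5, 73.3, 67.8, 67.5 and 70.4 CPM against 42.2, 47.6 and 61.6 CPM, a log2 difference of 0.54 ± 0.06 SE. Both pairs of groups were apart, with edgeR adjusted p = 5.27e-11 and 1.44e-08. Anxa6 measured 199.6, 203, 196, 195 and 181 CPM against 163, 165 and 184 CPM, and only its lowest library, replicate 5, lay in the Gal3Ko range (log2 0.22 ± 0.06 SE, edgeR adjusted p = 0.00230). Anxa3 measured 15.6, 17.1, 17.7, 21.8 and 19.0 CPM against 12.1, 14.97 and 19.0 CPM, with much overlap (log2 0.27 ± 0.09 SE, edgeR adjusted p = 0.0128). Without Mst1Gal3 replicate 4, the highest library, that call was lost (log2 0.19, adjusted p = 0.0769).

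Anxa11 measured 23.6, 19.6, 18.9, 20.5 and 19.4 CPM in Mst1Gal3 against 22.8, 25.1 and 26.7 CPM in Gal3Ko. Of the 5 libraries only replicate 1 reached the Gal3Ko range, and Anxa11 was lower by edgeR (log2 -0.29 ± 0.07 SE, adjusted p = 0.000872), a call that was lost when counts were scaled to library totals (log2 -0.06, adjusted p = 0.572).

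Galectin-3 knockout on its own left most annexins without a call. Comparing Gal3Ko with wt, edgeR called 1 of 8, Anxa7, which was lower, in a comparison where 0.354% of all genes were called, 0.177% higher and 0.177% lower. The wt libraries are also the reference of the first comparison, so both rest on the same 6 values. Anxa7 measured 42.2, 47.6 and 61.6 CPM (lowest, median, highest) in Gal3Ko against 54.9, 61.0 and 62.4 CPM in wt. All Gal3Ko libraries but replicate 2 lay below the whole wt range, and the difference was log2 -0.30 ± 0.06 SE (edgeR adjusted p = 0.0137). The call was lost when the fit held only these 2 groups (adjusted p = 0.1002), without the 6 libraries with atrial RNA (log2 -0.32, adjusted p = 0.0938) and without wt replicate 3 (adjusted p = 0.05003). Anxa7 and Anxa11 lie on chromosome 14 like Lgals3, at 26.9 and 21.5 Mb from it; whether sequence around the targeted locus bears on them was not tested.

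The other 7 members were not called, with log2 differences from -0.25 for Anxa3 (95% interval -0.42 to -0.07) to 0.02 for Anxa6 (-0.09 to 0.14). The Anxa6 value was -0.04 when scaled to library totals. Counting Anxa7, 7 of 8 members were below 0, and the member median was -0.16 against 0.00 over all genes. Anxa1, Anxa3, Anxa5 and Anxa11 had an unadjusted p below 0.05 without passing the adjustment, with adjusted p = 0.672, 0.434, 0.509 and 0.591 by edgeR. Their differences were log2 -0.21, -0.25, -0.15 and -0.16. Over all 15249 genes, about 1015 had an unadjusted edgeR p of 0.0499976 or less in this comparison.

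On the Mst-1 background, Mst1Gal3 was set against MstTg. Here 4 annexins were lower (Anxa1, Anxa3, Anxa7 and Anxa11) and 0 higher, while 4.89% of all genes were called, 2.54% higher and 2.35% lower. The member median was log2 -0.17 against 0.02 over all genes. Anxa2 and Anxa4, which with Anxa1 rose most under Mst-1, were not called. This comparison takes its libraries from groups already used above, so its values are not a separate measurement of them.

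Of these 4, Anxa11 kept its call in every fit that left out 1 library (12 of 12). Its MstTg values (21.4 to 29.7 CPM) overlapped Mst1Gal3 only through the lowest MstTg and highest Mst1Gal3 libraries, both replicate 1, and the difference was log2 -0.36 ± 0.07 SE (edgeR adjusted p = 0.00235). Anxa1 was lower by 0.37 on the log2 scale (SE 0.09, edgeR adjusted p = 0.0133), and 3 of its 5 Mst1Gal3 libraries lay below the lowest MstTg library. Without Mst1Gal3 replicate 1 its call was lost (adjusted p = 0.0569).

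Anxa7 was lower by 0.24 on the log2 scale (SE 0.07, edgeR adjusted p = 0.0259), and its highest Mst1Gal3 library at 75.5 CPM was below the lowest MstTg library at 78.1 CPM. It was the only member whose groups did not overlap, which 2% of all genes did in that direction. The call was nonetheless narrow: it held in 6 of 12 fits that left out 1 library and was lost without the atrial libraries, where the difference was about as large (log2 -0.23 ± 0.08 SE, adjusted p = 0.0681). The libraries whose removal ended it were MstTg replicates 1, 2 and 3 and Mst1Gal3 replicates 3, 4 and 5, with log2 differences from -0.24 to -0.23 and adjusted p from 0.0501 to 0.0772. Anxa3 was lower by 0.34 on the log2 scale (SE 0.09, edgeR adjusted p = 0.0244) with overlapping groups, and held in 8 of 12 such fits. Its call ended without MstTg replicate 7 (adjusted p = 0.0591) and without Mst1Gal3 replicates 1, 2 and 3 (0.104, 0.0731 and 0.0523).

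The 4 members not called were Anxa2 at log2 -0.08 (95% interval -0.22 to 0.05), Anxa5 at -0.09 (-0.21 to 0.03), Anxa4 at 0.00 (-0.13 to 0.14) and Anxa6 at 0.04 (-0.08 to 0.16). Their edgeR adjusted p ran from 0.460 for Anxa5 to 0.979 for Anxa4. Scaled to library totals, Anxa4 was -0.07 and Anxa6 -0.03, neither called.

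Whether the Mst-1 response differed between the galectin-3 backgrounds was tested directly as an interaction. None of the 8 annexins was called, 0 had an unadjusted p below 0.05 by edgeR, and limma-voom and DESeq2 also called 0, where edgeR called 0.656% of all genes, 0.289% higher and 0.367% lower. All 8 had the same sign in both Mst-1 comparisons. The widest gap between those comparisons was 0.19 on the log2 scale, for Anxa11 (interaction -0.19 ± 0.10 SE, 95% interval -0.39 to 0.01, edgeR adjusted p = 0.434). For Anxa2 the interaction was 0.04 with an interval of -0.16 to 0.23, for Anxa4 0.07 with -0.11 to 0.26, and for Anxa1 -0.16 with -0.42 to 0.10. The lower level of Anxa1 in Mst1Gal3 than in MstTg was therefore not shown to exceed that between Gal3Ko and wt.

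**Figure D3:**
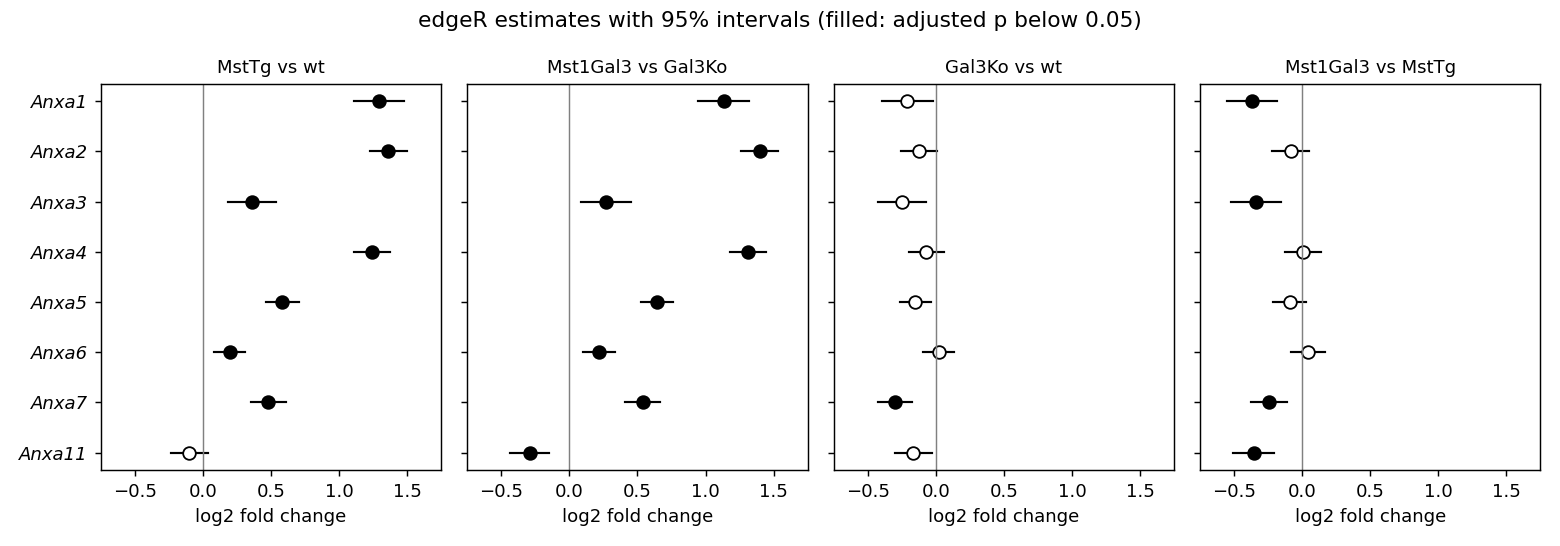
Log2 fold change (x axis) of the 8 annexins in 4 comparisons, with 95% intervals, and filled points where the edgeR adjusted p was below 0.05. The 2 panels on Mst-1 overexpression run from -0.10 to 1.36 and from -0.29 to 1.397, and the 2 panels on the galectin-3 knockout stay between -0.37 and 0.04.

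A ratio between genes within 1 library needs no scaling between libraries, and it was taken here from RPKM. The ratio of Anxa2 to Anxa6 RPKM had a median of 0.182 in wt (0.157 to 0.206) and 0.405 in MstTg (0.364 to 0.456). In Gal3Ko the median was 0.163 and in Mst1Gal3 0.369. Every library with Mst-1 overexpression was above every library without it. The ratios of Anxa1, Anxa4 and Anxa5 were also apart in both Mst-1 comparisons. The ratio of Anxa7 overlapped in both (0.165 to 0.196 in wt and 0.180 to 0.261 in MstTg, 0.122 to 0.182 in Gal3Ko and 0.169 to 0.191 in Mst1Gal3), unlike its CPM, and so did the ratio of Anxa3. For Anxa11 the same ratio was 0.117 in wt (0.111 to 0.131) and 0.0984 in MstTg (0.0904 to 0.107), and 0.104 in Gal3Ko (0.0969 to 0.116) against 0.0746 in Mst1Gal3 (0.0684 to 0.0839). In both pairs the groups did not overlap, so Anxa11 and Anxa6 changed unequally.

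Genes that work with annexins were taken from 6 lists, whose counts of calls in MstTg against wt stand beside 28.2% higher and 26.8% lower over all genes. For Mst1Gal3 against Gal3Ko these shares were 26.9% higher and 25.6% lower. In the galectin-3 comparisons, 0.354% of all genes were called in Gal3Ko against wt and 4.89% in Mst1Gal3 against MstTg. In the S100 list, 4 of 5 genes were measured, and 3 were higher and 1 lower in MstTg than in wt. S100a10, the partner of Anxa2, rose from a mean of 15.2 CPM to 35.6 CPM (log2 1.23 ± 0.08 SE, edgeR adjusted p = 2.15e-14). S100a6 (log2 1.05 ± 0.10 SE) and S100a11 (0.85 ± 0.09), which bind other annexin tails, also rose, with adjusted p = 2.59e-10 and 1.67e-09. S100a1, a calcium sensor of heart muscle, was lower (log2 -0.21 ± 0.06 SE, adjusted p = 0.00397). In Mst1Gal3 against Gal3Ko the same 3 rose, S100a10 by log2 1.39 ± 0.08 SE, and S100a1 was not called. The list median was 0.95 in MstTg against wt, and 0 of its genes were called in either galectin-3 comparison.

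Anxa7 and Anxa11 bind penta-EF-hand proteins, which hand on to the ESCRT machinery that pinches off damaged membrane. Of 10 such genes, all measured, 2 were higher, 2 lower and 6 not called in MstTg against wt, with a median of 0.01, which is no larger a share than the 55% called over all genes. Gca, which encodes grancalcin, fell from a mean of 12.8 to 4.58 CPM (log2 -1.49 ± 0.10 SE, edgeR adjusted p = 2.72e-14). Vps4a, the ATPase that takes ESCRT filaments apart, was also lower (log2 -0.39), and Chmp4c (0.39) and Pdcd6ip (0.21) were higher. In Mst1Gal3 against Gal3Ko 3 were higher and 3 lower, and Gca fell by 1.51 on the log2 scale.

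Of the sarcolemmal repair genes 15 of 17 were measured, and 5 were higher, 6 lower and 4 not called in MstTg against wt, with a median of -0.01. Calls over all genes were divided about as evenly, at 28.2% higher and 26.8% lower. Myof, a ferlin of membrane fusion, rose from 14.9 to 30.3 CPM (log2 1.02 ± 0.07 SE, edgeR adjusted p = 1.18e-13). Capn2, the catalytic subunit of a calcium-activated protease, rose by log2 0.66 ± 0.05 SE (adjusted p = 6.93e-14). Cav1, the coat protein of caveolae, fell by 0.70 on the log2 scale, and Smpd1, the lysosomal sphingomyelinase, by 0.80. In Mst1Gal3 against Gal3Ko 6 were higher and 5 lower. Against MstTg, Cav1 was lower still in Mst1Gal3 (log2 -0.23 ± 0.06 SE, adjusted p = 0.0275), the only call of the list there.

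In the list of plasminogen activation, to which the Anxa2 complex belongs, 6 of 7 genes were measured, and 2 rose, 1 fell and 3 were not called in MstTg against wt, with a median of -0.01. Plat, which encodes tissue plasminogen activator, rose from a mean of 16.5 to 24.6 CPM (log2 0.58 ± 0.09 SE, edgeR adjusted p = 2.19e-06). Serpine2, a protease inhibitor that acts on plasminogen activators, rose by log2 0.94 ± 0.08 SE (adjusted p = 1.50e-11). Tfpi, the inhibitor of tissue factor, fell by 0.51 on the log2 scale (adjusted p = 5.05e-06), and Plgrkt, a plasminogen receptor, was not called (log2 0.10, adjusted p = 0.345). Against wt, Tfpi was higher in Gal3Ko (log2 0.39 ± 0.08 SE, adjusted p = 0.0158). In Mst1Gal3 against Gal3Ko 3 rose and 1 fell. In Mst1Gal3 against MstTg 1 gene was called, Plau, which encodes urokinase and was higher (log2 0.59 ± 0.16 SE, adjusted p = 0.0320); it lies outside the rule for named genes and was chosen after its values were seen.

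Anxa1 was first described as an inhibitor of phospholipase A2, and its peptide acts on formyl peptide receptors. Of this list 4 of 9 genes were in the table, and the 5 receptor genes were not. The enzymes moved in opposite directions in MstTg against wt, with 1 higher, 2 lower and 1 not called. Pla2g4a, the cytosolic enzyme that releases arachidonic acid, rose from a mean of 3.71 to 14.99 CPM (log2 2.01 ± 0.09 SE, edgeR adjusted p = 4.75e-18). Pla2g5, a secreted enzyme, fell from 24.5 to 2.48 CPM (log2 -3.30 ± 0.14 SE, adjusted p = 3.06e-18). In Mst1Gal3 against MstTg, which shares the MstTg libraries, Pla2g4a was lower (log2 -0.37 ± 0.09 SE, adjusted p = 0.0102) and Pla2g5 higher (0.90 ± 0.16 SE, adjusted p = 0.000595). For Pla2g5 the interaction was called as well (0.90 ± 0.20 SE, adjusted p = 0.0253), and for Pla2g4a it was not (-0.16, adjusted p = 0.675).

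Anxa5 binds phosphatidylserine, and 18 genes of its exposure and recognition were all measured. In MstTg against wt 12 were higher, 1 lower and 5 not called, with a median of 0.33, where 28.2% of all genes were higher and 26.8% lower. Axl, a receptor that recognises phosphatidylserine through Gas6, rose from 79.1 to 184 CPM (log2 1.22 ± 0.08 SE, edgeR adjusted p = 6.33e-14). Plscr1, a scramblase family member, rose by log2 1.14 ± 0.10 SE, Ano6, a calcium-activated scramblase, by 0.51 ± 0.06 SE, and Mfge8, a bridging protein, by 0.42 ± 0.07 SE. In Mst1Gal3 against Gal3Ko 8 were higher and 2 lower, and 0 of 18 were called in either galectin-3 comparison.

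**Figure D4:**
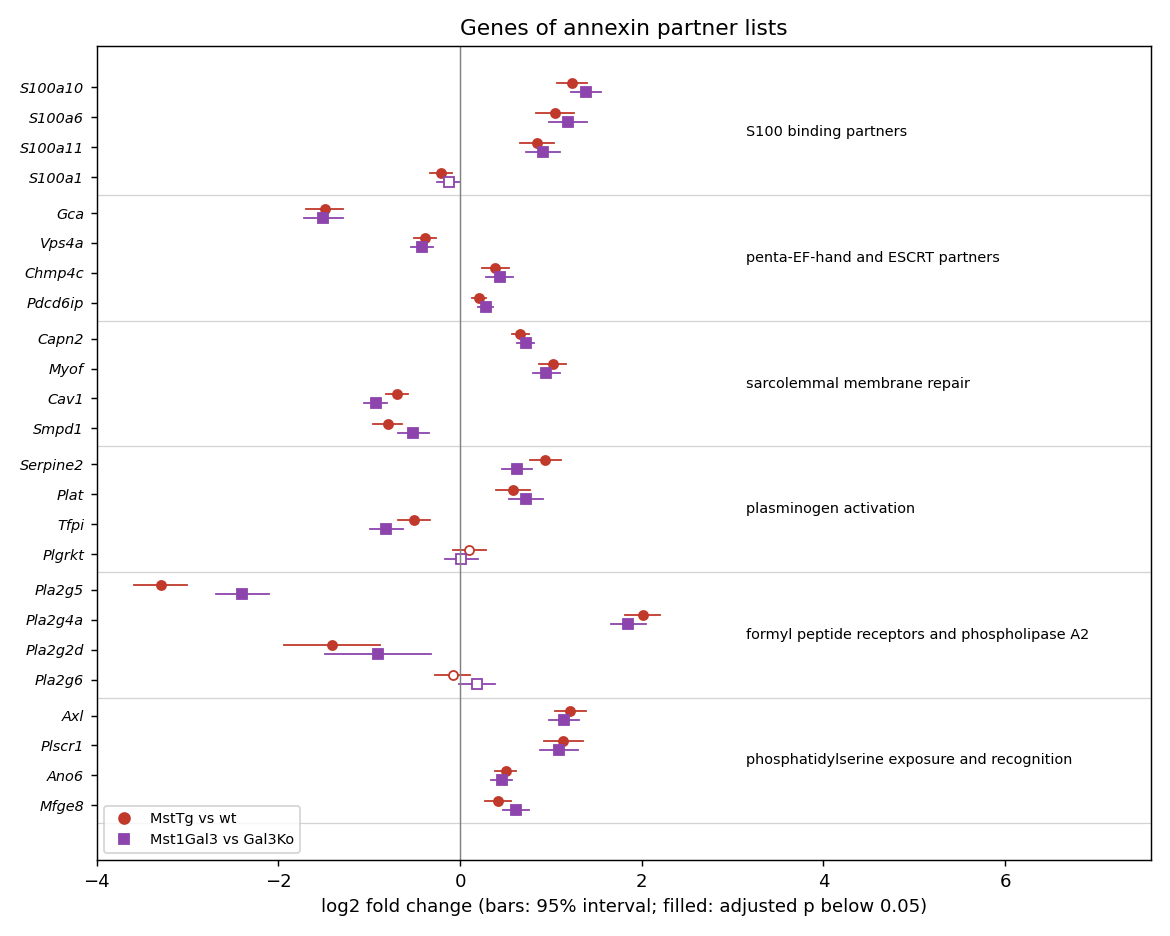
Log2 fold change (x axis) with 95% intervals for the 4 genes of smallest p in each of 6 partner lists, in MstTg against wt (circles) and Mst1Gal3 against Gal3Ko (squares), filled where the edgeR adjusted p was below 0.05. S100a10 lies at 1.23 and 1.39 and Gca at -1.49 and -1.51, and Pla2g5 is the gene furthest left, at -3.30 and -2.40.

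Markers of 10 cell types were counted beside the annexins, first in MstTg against wt, where 28.2% of all genes were higher and 26.8% lower. All 12 fibroblast markers were higher in MstTg than in wt (median log2 1.26), and their summed level was 1656 to 2359.8 CPM in wt and 4103 to 5259 in MstTg, 1666 to 2082 in Gal3Ko and 4155 to 4745 in Mst1Gal3. Of 10 cardiomyocyte markers 8 were lower and 1 higher (median -0.68), while their sum, at 97292 to 122672 CPM in wt and 106279 to 124339 CPM in MstTg, overlapped. Of 12 endothelial markers 9 were lower, with sums of 1271 to 1476 CPM in wt and 899.8 to 1058 CPM in MstTg. Of 13 macrophage markers 2 were higher and 1 lower, and their sums overlapped (236 to 441 CPM in wt, 297 to 359.9 CPM in MstTg). Of 9 smooth muscle and pericyte markers 2 were higher and 3 lower, and their sum was lower without overlap (1179 to 1479.7 CPM in wt, 835 to 991 CPM in MstTg). Of 4 mesothelial markers 3 were lower, with overlapping sums of 5.96 to 11.6 and 4.12 to 7.68 CPM. Of 5 atrial markers 1 was higher and 1 lower, with log2 differences from -0.44 to 4.97. The atrial sum was 70.9 to 131 CPM in wt and 2017 to 2702 CPM in MstTg. Myl7, Myl4 and Sln made up little of it, at 1.19 to 33.1 CPM in wt and 5.60 to 35.4 CPM in MstTg. The rest came from the other measured members of the list, Nppa and Tbx5, so the rise is not one of the RNA used to check for atrial tissue. Of 2 neutrophil markers 1 was lower, and 0 of 5 red blood cell markers and 0 of 1 lymphocyte marker were called. In the fibroblast, cardiomyocyte, endothelial, macrophage and smooth muscle lists no gene was at 0 in any library, and the part of all these cell types in the annexin values was not tested. In Mst1Gal3 against MstTg, where 4 annexins were lower, 2.54% of all genes were higher and 2.35% lower. There 1 of 12 fibroblast markers was lower, 3 of 10 cardiomyocyte markers were higher and 0 endothelial or macrophage markers were called. Of 2 neutrophil markers 1 was higher, at low sums of 1.08 to 1.63 CPM in MstTg and 1.82 to 2.44 CPM in Mst1Gal3, and 1 was called higher in the interaction. No marker of the smooth muscle, mesothelial, atrial, red blood cell or lymphocyte lists was called in Mst1Gal3 against MstTg.

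Each annexin was compared with 12080 other genes by Pearson's r of log2 CPM over the 26 libraries, as a description of likeness; the libraries fall into those with and without Mst-1 overexpression, which a correlation across all of them mostly reflects. Anxa1 was most like C1qtnf7 (r = 0.986, Spearman's rho = 0.942), Anxa2 most like Nlrc3 (0.988, rho = 0.835), and Anxa4 most like Klhl41, a muscle protein of the kelch family (0.989, rho = 0.804). Anxa5 was most like Rpl3 (0.974), Anxa7 most like Prkab2 (0.943), Anxa6 most like Scap (0.941), Anxa3 most like Rai14 (0.880) and Anxa11 most like Sipa1l2 (0.780). With group means removed, C1qtnf7 stayed among the 3 genes most like Anxa1 (r = 0.790, behind Lrrn4cl at 0.826) and Scap stayed the first for Anxa6 (0.881, rho = 0.851). The first became Tmem94 for Anxa11 (0.885), Chp1 for Anxa7 (0.845), Pkd2 for Anxa3 (0.797), Psmc5 for Anxa5 (0.770), Cct8 for Anxa4 (0.756) and Cks1b for Anxa2 (0.672).

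Among themselves the annexins other than Anxa11 were more alike across groups than within them. Over the 28 pairs, r across all libraries had a median of 0.703, from -0.42 for Anxa4 with Anxa11 to 0.983 for Anxa2 with Anxa4. All pairs with Anxa11 were below 0, the nearest to it being Anxa3 with Anxa11 at -0.0272. With group means removed the median was 0.112, from -0.519 for Anxa3 with Anxa6 to 0.626 for Anxa6 with Anxa11. These values share libraries and depth and carry no test.

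Of the other annexin genes, Anxa8 and Anxa9 were in the table at low levels, with group means up to 1.15 and 1.09 CPM. Anxa8 had 1 to 41 counts per library, and was higher in MstTg than in wt (log2 1.31 ± 0.32 SE, edgeR adjusted p = 0.000845) and lower in Mst1Gal3 than in MstTg (-1.07 ± 0.32 SE, adjusted p = 0.0468), and higher in Mst1Gal3 than in Gal3Ko (1.005 ± 0.38 SE, adjusted p = 0.0267). Like Anxa7 and Anxa11 it lies on chromosome 14, at 13.3 Mb from Lgals3. Anxa9 had 6 to 39 counts per library and was higher in MstTg than in wt (log2 0.69 ± 0.22 SE, adjusted p = 0.0101) and in Mst1Gal3 than in Gal3Ko (1.14 ± 0.21 SE, adjusted p = 3.19e-05). It overlaps the genes Mindy1 and 6330562C20Rik, so its few reads could belong to them.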

How the data were processed

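Per the labels' protocols, left ventricle RNA was depleted of ribosomal RNA and made into directional libraries. Tools listed by the submitters' processing notes are STAR, featureCounts and bcl2fastq 2.19.1.403, with the build GRCm38. For the other versions, the annotation and the strand setting, nothing is given in the sources used here. The deposited table holds raw counts per gene for 26 libraries (groups from the sample titles), and no gene averaged under 10 counts. Counts were fitted with edgeR 4.0.16 (R 4.3.3) in 1 model of 4 group means: TMM factors, filterByExpr (0 genes removed), robust quasi-likelihood, two-sided tests, Benjamini-Hochberg adjustment over 15249 genes, threshold 0.05, 22 residual degrees of freedom. Intervals are 95%. CPM use TMM-adjusted totals, log2 CPM a prior count of 0.5, and RPKM and positions come from GENCODE M21, which held 15200 of the identifiers. Cavin1 was matched under its older symbol. Replicate pairs were checked for duplicates and none was found. Named genes were all members, up to 4 partners of smallest p per list in MstTg against wt, and the genes most like each member by r. Members and lists were chosen with earlier results of these data known. Alternatives were DESeq2 1.42.0, limma-voom 3.58.1 with and without sample weights, library totals, no mitochondrial genes, no filter, only the groups compared, a replicate block, each library left out, and, added after the data were seen, no libraries with atrial RNA. The pipeline was tested on simulated data. A gene of the plasminogen list is not reported here and was left out of its counts. Raw reads were not analysed here.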

Additional observations from a re-analysis of the deposited data

Results flagged for a closer look

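Among 32 sets of libraries (8 annexins in 4 groups), 1 held a library far from the others: Anxa6 in Gal3Ko replicate 5 was at 184 CPM, with the nearest library at 169 CPM and the lowest at 163 CPM. Chance sets apart about 1 in 20 such sets. That library is also among the 6 with atrial RNA.

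The effect of Mst-1 overexpression on Pla2g5 differed between the galectin-3 backgrounds, with a log2 interaction of 0.90 ± 0.20 SE (edgeR adjusted p = 0.0253). Mean levels were 24.5 CPM in wt, 2.48 in MstTg, 24.5 in Gal3Ko and 4.65 in Mst1Gal3.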

How the results depend on the processing

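The annexins called kept their number within 1.5 times under all alternatives for MstTg against wt (7), Mst1Gal3 against Gal3Ko (8, or 7 under library totals) and the interaction (0). For Gal3Ko against wt the 1 call (Anxa7) became 0 when only the groups compared were fitted and 0 without the 6 libraries with atrial RNA. Leaving out 1 library gave 7 to 7 calls for MstTg against wt, 0 to 1 for Gal3Ko against wt (0 without wt replicate 3), 2 to 4 for Mst1Gal3 against MstTg (2 without Mst1Gal3 replicate 1 or replicate 3), 7 to 8 for Mst1Gal3 against Gal3Ko and 0 to 0 for the interaction; the cause was not tested.

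Values that turned sign were all uncalled. Under library totals they were Anxa11 in MstTg against wt (0.15), Anxa6 in Gal3Ko against wt (-0.0393), and Anxa4 (-0.0690) and Anxa6 (-0.0302) in Mst1Gal3 against MstTg. In the interaction they were Anxa2 (-0.0111), Anxa5 (-0.0219) and Anxa6 (-0.0112) with sample quality weights. With only the groups compared, Anxa4 was -0.00748 in Mst1Gal3 against MstTg. Leaving out 1 library, Anxa4 in Mst1Gal3 against MstTg ran from -0.0108 to 0.0241, and in the interaction Anxa6 from -0.0122 to 0.0543 and Anxa2 from -0.000349 to 0.0781.

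Whether replicate numbers pair the libraries was checked on deviations from the group means. Of same-numbered pairs, 1 of 6 (MstTg, wt), 4 of 6 (Gal3Ko, wt), 0 of 5 (Mst1Gal3, MstTg) and 2 of 5 (Mst1Gal3, Gal3Ko) had deviations correlated above 0.1. In the same order, 1, 4, 0 and 2 correlated best with their own number. Same-numbered wt and Gal3Ko libraries were thus partly alike (r from -0.0178 to 0.22), and the reason was not tested. With the replicate block the annexins called stayed at 7, 1, 4, 8 and 0, and the interactions of Anxa3 (0.0321), Anxa6 (-0.0125) and Anxa7 (-0.0180) turned sign without a call.

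Over all genes, Gal3Ko against wt had 54 calls, 89 by DESeq2, 88 with sample weights, and 33 both with only the groups compared and without atrial libraries. The interaction had 100, 195 by DESeq2, 51 with the replicate block and 52 to 189 leaving out 1 library. Mst1Gal3 against MstTg had 746, 913 by DESeq2, 1108 with sample weights, 608 with the replicate block and 1027 without atrial libraries. Leaving out 1 library, this comparison ran from 469 without Mst1Gal3 replicate 1 to 1040 without MstTg replicate 5. Library totals gave 16 higher and 45 lower for Gal3Ko against wt, 136 and 558 for Mst1Gal3 against MstTg, and 7374 and 1929 for Mst1Gal3 against Gal3Ko, where the median of all genes was 0.24. Group means of 15 annexin levels moved by more than 1 SD under library totals. The depth limits Anxa8 and Anxa9 most.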
